A study of Mus musculus with 12 samples.

Results

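The genes described here are the collagens and the enzymes and helper proteins that modify, fold, process, and cross-link them. They are the 58 rows of the count table, of 56941 in all, whose symbol had the form of a collagen chain (Col, a number, the letter a, and a number) or was that of a prolyl 4-hydroxylase (P4ha1 to P4ha3), a lysyl hydroxylase (Plod1 to Plod3), a lysyl oxidase (Lox, Loxl1 to Loxl4), the collagen chaperone (Serpinh1), or a C-proteinase enhancer (Pcolce, Pcolce2). There were 44 collagens and 14 genes of the second kind, called the enzymes below. They were chosen by symbol. Of the 58, 40 passed the filter on low counts and were tested (26 collagens and all 14 enzymes), and 18 collagens did not.

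The cells were 3T3-L1, a fibroblast line of mouse embryo origin labelled wild type, and RNA of 4 conditions was sequenced with 3 libraries each. Cells were cultured for 24 hours with vehicle (control), with IL-4 and IL-13 at 50 ng/mL each (IL-4/13), with an inflammatory mixture (Inf) of 20 ng/mL TNF-α, 50 ng/mL IL-17A, and 0.5 ng/mL IL-1β, or with all 5 cytokines (IL-4/13 + Inf). IL-4 and IL-13 are the cytokines of type 2 inflammation, and the comparisons asked what they change in fibroblasts on their own and on top of Inf. All libraries came from one line kept in culture without skin, other cells, or matrix from an animal, and no label says that the 3 libraries of a condition came from separate cultures, so p values here measure the spread between libraries, which may be technical.

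Total counts per library ranged from 13446005 to 20775769. The fibroblast markers Pdgfra, Pdgfrb, Thy1, Vim, Fn1, and Dpt were all tested, with Vim at 3625 ± 85.8 CPM in control (mean ± SD, n = 3), and their summed level went from 6521 to 7419 CPM in control libraries to 4666 to 5184 in Inf and 3958 to 4125 in IL-4/13 + Inf. CPM are counts scaled by library size after TMM correction. The epithelial (Krt5, Krt14, Epcam, Cdh1) and endothelial (Pecam1, Cdh5, Kdr, Tek) lists summed to at most 0.66 and 1.58 CPM in any library, and Adipoq, Plin1, Cidec, Lep, and Cfd had at most 3 counts in every library. The macrophage list (Ptprc, Adgre1, Csf1r, Cd68, Lyz2) summed to at most 7.86 CPM. Fabp4, the other adipocyte marker, was at 11.3 ± 0.7904 CPM in control and 30.1 ± 1.84 CPM in Inf. Of the libraries, Inf replicate 3 stood apart, with a chi-square per gene of 10.05 and 9.5 against the other Inf libraries where all other replicate pairs lay between 2.395 and 5.403, and values without it are given where leaving it out changes a call.

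Collagens are secreted proteins whose chains wind into a rope-like helix, which requires glycine at regular intervals and is stabilized by hydroxylated proline. Prolyl and lysyl hydroxylases modify the chains in the endoplasmic reticulum, and the chaperone Hsp47, encoded by Serpinh1, holds the folded procollagen until it is exported. Outside the cell the propeptides are cut off, which lets fibril-forming collagens assemble, and lysyl oxidases then join the chains by covalent cross-links. Fibroblasts are the main source of this matrix in skin and most other connective tissue, where types I and III form the fibrils, type V limits their width, type VI forms filaments around cells, and type IV forms the sheet of basement membranes.

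By CPM, which are not corrected for length, collagen mRNA was among the most abundant in these cells. Its summed level was lower under every cytokine treatment. That of the enzymes was higher through the rise of Lox, and not in every class of enzyme. Averaged over all 12 libraries, Col1a2 ranked 5 and Col1a1 ranked 12 among all tested genes by CPM, followed among these genes by Lox at rank 31, Col3a1 at 36, Col4a1 at 39, and Serpinh1 at 50. Per kilobase of exon, among the 14614 tested genes with a length, Col1a2 ranked 133, Col1a1 98, Lox 137, Col3a1 332, Col4a1 252, and Serpinh1 75. The 44 collagens summed to 19060.1 ± 1533 CPM in control (mean ± SD, n = 3), 16322 ± 581 with IL-4/13, 13617 ± 1168 with Inf, and 11490.5 ± 135 with both. Every treated library lay below every control library. The 14 enzymes summed to 4842 ± 161 CPM in control, 5508 ± 90.7 with IL-4/13, 5042 ± 12.2 with Inf, and 5396 ± 43.4 with both, with every treated library above the control libraries. Among them, the lysyl oxidases summed to 1787 CPM in control, 2773 with IL-4/13, 2177 with Inf, and 2726 with both. Mean Lox alone rose by more than the sum of the 14 enzymes in each treatment. The mean sum of the enzymes other than Lox was therefore below control in each treatment. The prolyl 4-hydroxylases were at 492, 457, 626, and 540 CPM in that order. The lysyl hydroxylases, Serpinh1, and the C-proteinase enhancers each had a lower mean sum in every treatment than in control. Together the 58 genes took 2.41 ± 0.152% of all counts in control and 1.67 ± 0.0132% in IL-4/13 + Inf. These sums describe the libraries and were not tested. Fewer fibroblasts with a high collagen level and less collagen mRNA per cell cannot be told apart in bulk RNA.

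**Figure D1:**
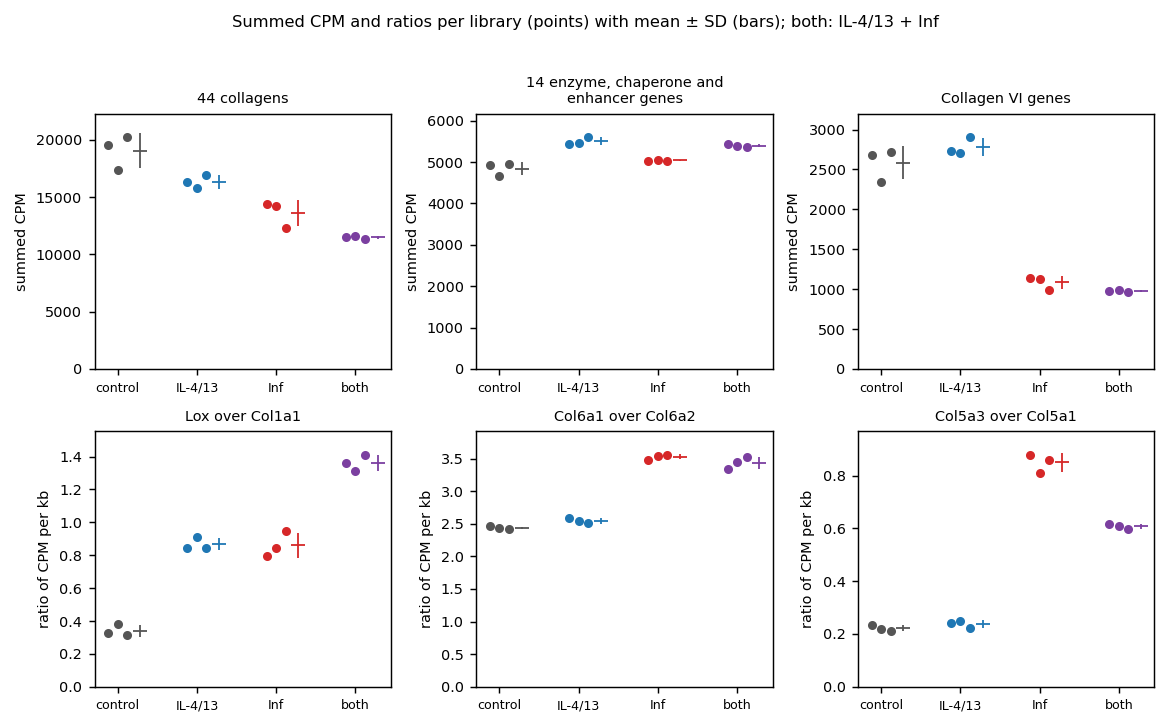
Summed CPM of the collagens, of the enzymes, and of the collagen VI genes (top row) and ratios of CPM per kilobase of exon between pairs of genes (bottom row) in each of the 12 libraries. Points are libraries, bars beside them are the mean ± SD of 3 libraries, and "both" is IL-4/13 + Inf. Collagen totals step down from control to IL-4/13 + Inf, the collagen VI total is low in both conditions with Inf, and Lox per Col1a1 rises from 0.340 in control to 1.36 in IL-4/13 + Inf.

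Calls of up- and downregulation needed a log2 fold change beyond 0.25 together with a Benjamini-Hochberg adjusted p under 0.05 over all 14810 tested genes. With IL-4/13 alone, 6 of the 40 tested genes were upregulated (15.0%, against 2.78% of all tested genes) and 10 were downregulated (25.0%, against 2.57%). With Inf, 9 were upregulated (22.5%, against 16.3%) and 19 were downregulated (47.5%, against 15.3%). The upregulated share with Inf was thus near that of all genes, and the downregulated share was well above it. With IL-4/13 + Inf against control, 7 were upregulated (17.5%, against 13.4%) and 23 were downregulated (57.5%, against 11.5%). With IL-4/13 on top of Inf, 4 were upregulated (10.0%, against 7.55%) and 12 were downregulated (30.0%, against 7.00%). Without Inf replicate 3, the last comparison held 4 upregulated and 16 downregulated genes, and Inf against control held 18 downregulated genes.

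The direction was split by role. Of the 26 tested collagens, 1 was upregulated and 9 downregulated with IL-4/13, 5 and 14 with Inf, 2 and 16 with IL-4/13 + Inf against control, and 0 and 9 with IL-4/13 on top of Inf. Their median log2 fold changes in these comparisons were -0.23, -0.32, -0.46, and -0.26, whereas the median of all tested genes lay within 0.01 of 0 in each. Of the 14 enzymes, 5 were upregulated and 1 downregulated with IL-4/13, and 4 of the 5 were lysyl oxidases. The enzymes divided 4 up and 5 down with Inf, 5 up and 7 down with IL-4/13 + Inf against control, and 4 up and 3 down with IL-4/13 on top of Inf. Of all tested genes, 2.78% were upregulated and 2.57% downregulated with IL-4/13, and 16.3% and 15.3% with Inf. These shares were 13.4% and 11.5% with IL-4/13 + Inf against control, and 7.55% and 7.00% with IL-4/13 on top of Inf. The fibroblast markers moved too, with 4 of 6 downregulated (Thy1, Vim, Fn1, and Dpt) and 2 upregulated (Pdgfra and Pdgfrb) with Inf. The smooth muscle and myofibroblast markers moved as well, with all 3 tested (Acta2, Tagln, and Cnn1) downregulated with Inf and with IL-4/13 + Inf against control. Acta2 was at 1284 ± 17.1 CPM in control, 1067 ± 20.3 CPM with IL-4/13, 995 ± 69.5 CPM with Inf, and 885 ± 21.6 CPM with both, and it was also downregulated with IL-4/13 (log2 fold change -0.27, SE 0.04, edgeR adjusted p = 3.4e-05). Sox9, a chondrocyte marker, fell with Inf (log2 fold change -1.01, SE 0.08, edgeR adjusted p = 1.8e-12). Comp, the other tested gene of that list, was not called with Inf (log2 fold change -0.475, edgeR adjusted p = 0.43), and Acan and Matn1 never exceeded 4 counts. The part of these markers in the collagen result was not tested.

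**Figure D2:**
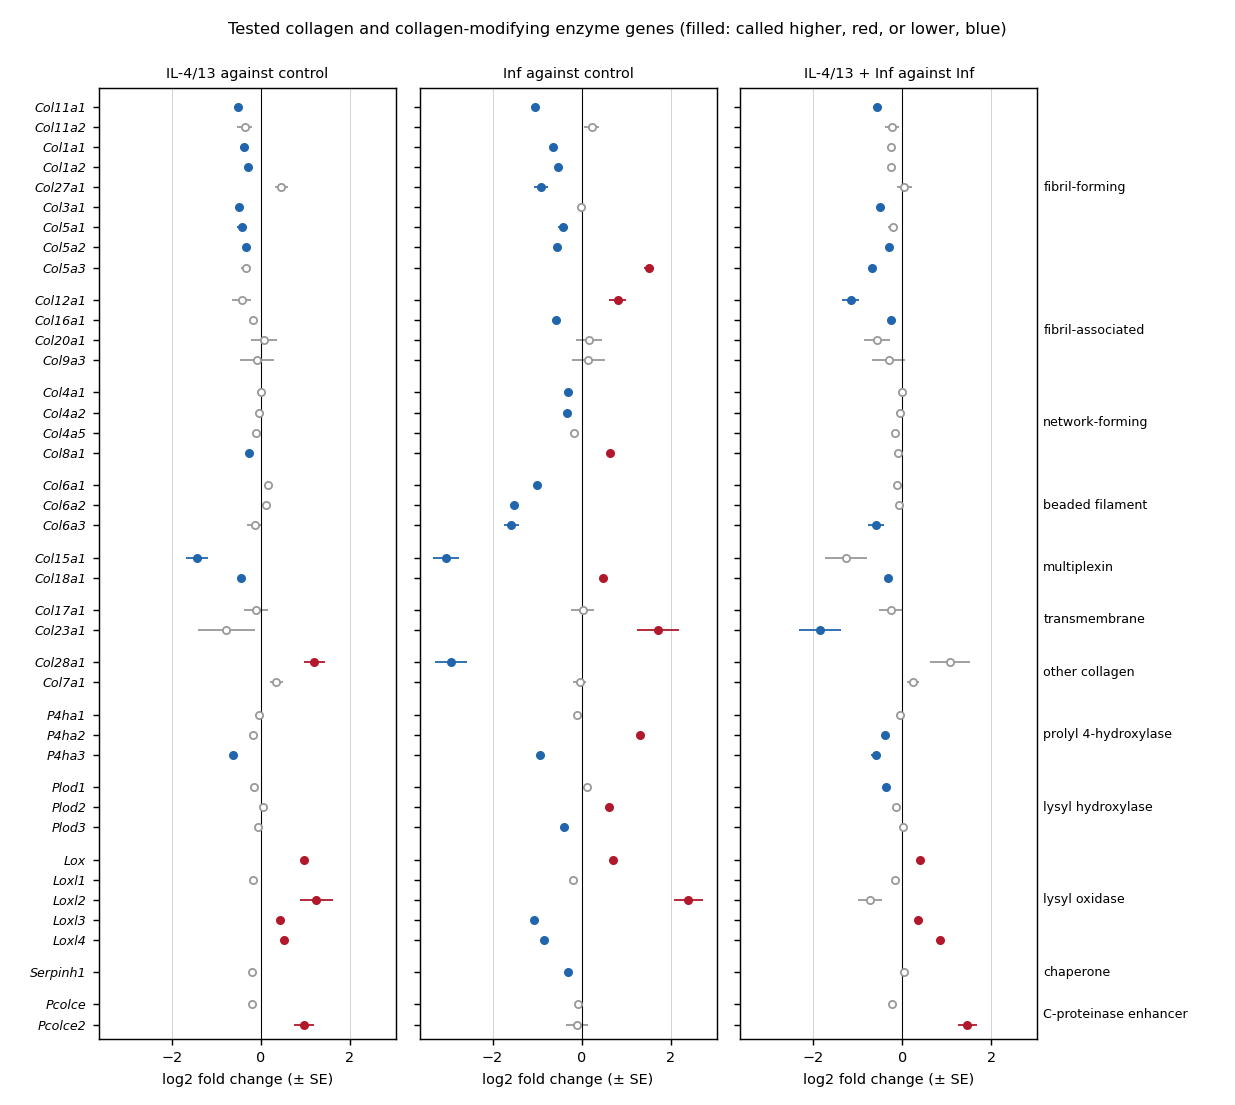
The log2 fold change (horizontal axis, ± SE) of each of the 40 tested genes (vertical axis, grouped by role) with IL-4/13, with Inf, and with IL-4/13 on top of Inf. Filled red points were called upregulated, filled blue points downregulated, and open gray points neither; most collagen points sit left of 0 in each panel, while Lox, Loxl3, Loxl4, and Pcolce2 sit right of 0 in the first and last.

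Of the 9 tested fibril-forming collagens, 6 were downregulated by IL-4/13 (median log2 fold change -0.36) and 6 by Inf (median -0.54), with 1 upregulated member, Col5a3, in the second case. Of the 6 with IL-4/13, Col1a1 and Col5a1 lost their calls when only the groups compared were fitted (edgeR adjusted p = 0.1 and 0.061). In IL-4/13 + Inf against control, 7 of 9 were downregulated and 1 upregulated, and with IL-4/13 on top of Inf, 4 were downregulated. Type I collagen, the main fibril of skin, tendon, and bone, is made of the products of Col1a1 and Col1a2. Col1a1 was at 4048, 3365, and 4266 CPM across control libraries, 3061, 2847, and 3051 across IL-4/13 libraries, 2590.0, 2633, and 2255 across Inf libraries, and 2109.9, 2135, and 1997 across those given both. Its level was lower in all treated libraries than in any control library, and the conditions did not overlap. The log2 fold change was -0.38 with IL-4/13 (SE 0.09, edgeR adjusted p = 0.031), -0.64 (edgeR adjusted p = 0.00027) with Inf, and -0.90 (edgeR adjusted p = 2.7e-05) with both. With IL-4/13 on top of Inf it was -0.26 (edgeR adjusted p = 0.068) and was not called by edgeR, whereas DESeq2 called it, as did edgeR without Inf replicate 3 (-0.33, edgeR adjusted p = 0.043). The call with IL-4/13 alone is weak, since it was lost in 4 of the 12 fits that leave out a library (control replicate 1 and each IL-4/13 library), with edgeR adjusted p up to 0.099.

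Col1a2 (ENSMUSG00000029661) had 5672, 5064, and 5887 CPM across control libraries, 4579, 4412, and 4642 across IL-4/13 libraries, 3965, 3968, and 3505 across Inf libraries, and 3248, 3256, and 3132 across those given both. It followed the same order of conditions as Col1a1 with a tighter spread, at a log2 fold change of -0.29 with IL-4/13 (SE 0.05, edgeR adjusted p = 0.0011) and -0.54 with Inf (SE 0.05, edgeR adjusted p = 7e-08). Without control replicate 3 the first of these was -0.24 and missed the threshold of size. With IL-4/13 on top of Inf the log2 fold change was -0.25 (edgeR adjusted p = 0.0016), just short of the threshold of size, and without Inf replicate 3 it was called (-0.30, edgeR adjusted p = 0.00015). Per kilobase of exon, Col1a1 exceeded Col1a2 by a ratio of 1.33 ± 0.0608 in control, 1.24 ± 0.0221 with IL-4/13, 1.24 ± 0.0192 with Inf, and 1.23 ± 0.0173 with both. The pair therefore kept a nearly fixed ratio while both fell.

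The 250 bases upstream of the Col1a2 start are shown because Col1a2 had the highest CPM of these genes, not corrected for length, and moved with Col1a1. The sequence is from RefSeq (GRCm38.p6, chr6:4505368-4505617, plus strand), written 5′ to 3′ on the gene's strand. Capitals mark matches, on either strand, to CCAAT and to ACGTG, the core of the hypoxia response element.
Col1a2: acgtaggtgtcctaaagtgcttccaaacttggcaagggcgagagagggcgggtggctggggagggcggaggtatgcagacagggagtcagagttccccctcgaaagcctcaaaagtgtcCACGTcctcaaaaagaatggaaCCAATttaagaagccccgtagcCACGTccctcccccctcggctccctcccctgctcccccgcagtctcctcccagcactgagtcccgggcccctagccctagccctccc

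Type III collagen, encoded by Col3a1, forms thin fibrils with type I in skin and vessel walls. Col3a1 was at 1752, 1647, and 1800.3 CPM across control libraries, 1231, 1201, and 1296 across IL-4/13 libraries, 1807, 1794, and 1562 across Inf libraries, and 1206, 1208, and 1228 across those given both. The libraries divided by IL-4/13, not by Inf, since control and Inf overlapped and both conditions with IL-4/13 lay below them. The log2 fold change was -0.48 with IL-4/13 (SE 0.05, edgeR adjusted p = 3.4e-08), -0.01 (edgeR adjusted p = 0.89) with Inf, and -0.50 (edgeR adjusted p = 7.2e-09) with IL-4/13 on top of Inf. The ratio of Col3a1 to Col1a1 per kilobase was 0.2996 ± 0.0242 in control, 0.278 ± 0.0082 with IL-4/13, 0.462 ± 0.0056 with Inf, and 0.3904 ± 0.0179 with both. The Inf libraries were the highest in this ratio. Of the Col3a1 exon bases in GENCODE M21, 1.44% overlap the gene model Gm47302 on the same strand.

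Type V collagen, which sets the width of type I fibrils, has chains encoded by Col5a1, Col5a2, and Col5a3, and they did not move together. Col5a3 was at 87.5, 72.7, and 89.7 CPM across control libraries, 68.6, 64.6, and 64.9 across IL-4/13 libraries, 268, 241, and 202 across Inf libraries, and 146, 152, and 143 across those given both. It had the largest rise with Inf among the collagens above 10 CPM in control, with all Inf and IL-4/13 + Inf libraries above all control libraries (log2 fold change 1.51, SE 0.10, edgeR adjusted p = 1.1e-07). Adding IL-4/13 to Inf lowered it (log2 fold change -0.69, SE 0.09, edgeR adjusted p = 0.00025), with no overlap between the groups. With IL-4/13 alone the log2 fold change was -0.33 (edgeR adjusted p = 0.077), not called in the main edgeR fit but called by DESeq2. It was also called by edgeR without Inf replicate 3 (-0.34, edgeR adjusted p = 0.00087). Other edgeR fits that called it were those without control replicate 2, without Inf replicate 1, with no filter, and with only the groups compared. Col5a1 was at 464, 415, and 526 CPM across control libraries, 356, 322, and 363 across IL-4/13 libraries, 379, 372, and 293 across Inf libraries, and 296, 310.2, and 299 across those given both. It was lower in all treated libraries than in control, at -0.43 (edgeR adjusted p = 0.047) with IL-4/13 and -0.43 (edgeR adjusted p = 0.012) with Inf, but 9 of the 12 fits that leave out a library lost the first of these calls (edgeR adjusted p up to 0.14) and only those without control replicate 2, Inf replicate 1, or Inf replicate 3 kept it. Col5a2, the partner chain, was at -0.33 (edgeR adjusted p = 3.5e-05) with IL-4/13, -0.56 (edgeR adjusted p = 7.6e-10) with Inf, and -0.30 (edgeR adjusted p = 6.7e-05) with IL-4/13 on top of Inf. The last of these was -0.23 without Inf replicate 2, under the threshold of size. Col5a1 was at -0.21 (edgeR adjusted p = 0.24) on top of Inf and was called without Inf replicate 3 (-0.31, edgeR adjusted p = 0.037). The ratio of Col5a3 to Col5a1 per kilobase was 0.222 ± 0.0117 in control and 0.8499 ± 0.0363 in Inf, whereas that of Col5a2 to Col5a1 was 2.08 ± 0.188 and 1.898 ± 0.126.

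The rarer fibrillar chains were at lower levels. Col11a1, a chain of the type XI collagen that seeds fibrils in cartilage, was at 24.5, 23.3, and 24.3 CPM across control libraries, 16.9, 15.7, and 17.7 across IL-4/13 libraries, 12.2, 12.2, and 10.5 across Inf libraries, and 8.18, 8.15, and 7.29 across those given both. Each treatment lowered it and no pair of the 4 conditions overlapped, with a log2 fold change of -0.52 with IL-4/13 (SE 0.09, edgeR adjusted p = 0.00021), -1.04 (edgeR adjusted p = 1.7e-10) with Inf, and -0.56 (edgeR adjusted p = 0.00023) with IL-4/13 on top of Inf. Col27a1 fell with Inf (log2 fold change -0.91, SE 0.16, edgeR adjusted p = 0.00012), and with IL-4/13 alone it was at 0.45 (edgeR adjusted p = 0.062), which DESeq2 called higher. It was also called higher with IL-4/13 by edgeR with no filter (0.455, edgeR adjusted p = 0.0018). The same held without control replicate 1 (0.63, edgeR adjusted p = 0.0093) and without IL-4/13 replicate 1 (0.58, edgeR adjusted p = 0.019). Col11a2 passed in no comparison, with log2 fold changes from -0.36 to 0.22.

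Collagens that attach to the surface of fibrils gave mixed results. Col12a1, whose product links fibrils under tension, was at 35.1, 33.4, and 42.2 CPM across control libraries, 31.3, 21.3, and 29.3 across IL-4/13 libraries, 76.8, 68.7, and 49.2 across Inf libraries, and 25.7, 30.6, and 30.7 across those given both. It was high in Inf alone, with no overlap with any other condition (log2 fold change 0.81, SE 0.19, edgeR adjusted p = 0.0074), and lower once IL-4/13 was added (log2 fold change -1.17, SE 0.19, edgeR adjusted p = 0.0024). In IL-4/13 + Inf against control its log2 fold change was -0.35 (edgeR adjusted p = 0.24). Inf replicate 3 was the lowest of the Inf libraries in Col12a1, Col5a3, and Col6a3, and the calls of these genes with Inf and with added IL-4/13 held without it. Col16a1, another chain of this class, was at -0.58 (edgeR adjusted p = 9.6e-08) with Inf, -0.83 (edgeR adjusted p = 3.3e-10) with IL-4/13 + Inf against control, and -0.26 (edgeR adjusted p = 0.0043) with IL-4/13 on top of Inf. The last of these sits at the threshold of size and was lost in 3 of the 12 fits without a library, those without Inf replicate 1, Inf replicate 2, and IL-4/13 + Inf replicate 3. Col20a1 and Col9a3, both scarce, passed in no comparison, with log2 fold changes from -0.57 to 0.16 and from -0.31 to 0.15.

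The basement membrane chains Col4a1 and Col4a2 are encoded head to head, with exons on opposite strands that overlap by 22 bases in GENCODE M21, and they moved alike. Col4a1 was at 1644, 1460.1, and 1675 CPM across control libraries, 1558, 1527, and 1711 across IL-4/13 libraries, 1433, 1313, and 1119.8 across Inf libraries, and 1255, 1291, and 1316 across those given both. The libraries with Inf lay below those without it, and IL-4/13 made no difference that passed the test in either setting, with log2 fold changes of 0.01 alone and within 0.01 of 0 on Inf (SE 0.09 in each). With Inf the log2 fold change was -0.31 (SE 0.09, edgeR adjusted p = 0.018), and 3 of the 12 fits without a library lost the call, those without control replicate 1, control replicate 3, and Inf replicate 3 (log2 fold change -0.22 in the last). The call with IL-4/13 + Inf against control was lost in 4, with edgeR adjusted p up to 0.073. Col4a2 was at -0.34 (edgeR adjusted p = 0.011) with Inf and -0.38 (edgeR adjusted p = 0.0069) with IL-4/13 + Inf against control. The ratio of the pair per kilobase stayed between 1.37 and 1.44 on average in the 4 conditions. Col4a5, a chain of kidney and skin basement membranes, was at -0.17 (edgeR adjusted p = 0.035) with Inf, under the threshold of size, and -0.34 (edgeR adjusted p = 0.0002) with IL-4/13 + Inf against control. On top of Inf it was at -0.17 (edgeR adjusted p = 0.061), and without Inf replicate 3 it was called (-0.27, edgeR adjusted p = 2e-05).

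Col8a1, which encodes a short network-forming chain of vessel walls, moved the other way with Inf. It was at 91.1, 92.4, and 88.9 CPM across control libraries, 76.3, 75.2, and 73.2 across IL-4/13 libraries, 140.2, 149, and 134 across Inf libraries, and 129, 131, and 134 across those given both. All Inf and IL-4/13 + Inf libraries lay above control (log2 fold change 0.63, SE 0.05, edgeR adjusted p = 3.9e-12 with Inf), and all IL-4/13 libraries lay below it (log2 fold change -0.28, SE 0.05, edgeR adjusted p = 0.00034). The spread within conditions was small, and adding IL-4/13 to Inf gave a log2 fold change of -0.10 (edgeR adjusted p = 0.13).

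Collagen VI, which forms beaded filaments between cells and fibrils, showed the largest falls with Inf among the collagens above 100 CPM in control. All 3 tested genes of the class fell with Inf (median log2 fold change -1.53), none was called with IL-4/13 alone, and 1 fell further with IL-4/13 on top of Inf. Their summed level was 2584 ± 206 CPM in control, 2783 ± 111 with IL-4/13, 1086 ± 82.7 with Inf, and 976 ± 11.95 with both. Col6a1 (ENSMUSG00000001119) was at 1310.0, 1146, and 1295 CPM across control libraries, 1371, 1382, and 1467 across IL-4/13 libraries, 651, 646, and 587 across Inf libraries, and 565, 584, and 582 across those given both. All libraries with Inf lay well below all without it (log2 fold change -0.99, SE 0.05, edgeR adjusted p = 7.1e-16 for Inf against control). The IL-4/13 libraries lay just above control at a log2 fold change of 0.17 (edgeR adjusted p = 0.022), under the threshold of size.

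Col6a2, the neighbor of Col6a1 in the genome, was at 1013, 895, and 1020.0 CPM across control libraries, 1006, 1033, and 1114 across IL-4/13 libraries, 355, 347, and 313 across Inf libraries, and 322, 322, and 314 across those given both. It fell more than Col6a1 with Inf (log2 fold change -1.53, SE 0.05, edgeR adjusted p = 4.7e-18), and the ratio of Col6a1 to Col6a2 per kilobase went from 2.44 ± 0.0222 in control to 3.53 ± 0.0404 in Inf, with no overlap. Col6a3, the largest chain of the filament, was at 363, 306, and 404 CPM across control libraries, 356, 288, and 328 across IL-4/13 libraries, 137, 130.3, and 91.1 across Inf libraries, and 84.2, 83.7, and 70.3 across those given both. With Inf its log2 fold change was -1.58 (SE 0.17, edgeR adjusted p = 7.4e-05). With IL-4/13 on top of Inf the libraries did not overlap, but the call (log2 fold change -0.58, SE 0.18, edgeR adjusted p = 0.048) was lost in 10 of the 12 fits that leave out a library, with edgeR adjusted p up to 0.14, and kept only without control replicate 2 or Inf replicate 3. The other collagen VI genes, Col6a4, Col6a5, and Col6a6, never exceeded 11 counts.

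The region upstream of Col6a1 is shown because this gene fell with Inf and also differed in its response to IL-4/13 with and without Inf. It is from RefSeq (GRCm38.p6, chr10:76726045-76726294, minus strand), and capitals mark a match to TGANTCA, the AP-1 site. The pattern, with N for any base, is its own reverse complement, so the match was counted once on each strand.
Col6a1: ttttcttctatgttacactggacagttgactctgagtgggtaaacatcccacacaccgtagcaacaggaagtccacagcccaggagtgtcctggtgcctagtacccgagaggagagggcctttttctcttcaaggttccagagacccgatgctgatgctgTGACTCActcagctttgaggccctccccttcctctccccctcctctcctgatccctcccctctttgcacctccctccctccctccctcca

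The multiplexins Col15a1 and Col18a1, both found at basement membranes, moved in opposite directions with Inf. Col15a1 was at 4.74, 4.65, and 4.62 CPM across control libraries, 1.88, 1.68, and 1.62 across IL-4/13 libraries, 0.465, 0.3896, and 0.849 across Inf libraries, and 0.198, 0.225, and 0.2699 across those given both. It had few reads (at most 83 in a library), yet no treated library reached the control level. Its log2 fold change was -1.43 with IL-4/13 (SE 0.24, edgeR adjusted p = 0.00014), -3.05 with Inf (SE 0.29, edgeR adjusted p = 4.1e-10), and -4.32 with IL-4/13 + Inf against control (SE 0.34, edgeR adjusted p = 5.8e-12). Col18a1, which carries the endostatin domain, was at 284, 276, and 305 CPM across control libraries, 214, 211, and 207 across IL-4/13 libraries, 428, 416, and 367 across Inf libraries, and 322, 331, and 312 across those given both. Inf raised it (log2 fold change 0.48, SE 0.05, edgeR adjusted p = 2.2e-09) and IL-4/13 lowered it both alone (log2 fold change -0.46, SE 0.05, edgeR adjusted p = 1.2e-07) and on Inf (log2 fold change -0.33, SE 0.05, edgeR adjusted p = 8.7e-06). The 4 conditions did not overlap.

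The remaining tested collagens were at a few CPM. Col28a1, which encodes a collagen with von Willebrand factor A domains, was at 2.46, 3.04, and 2.52 CPM across control libraries, 5.52, 6.22, and 6.69 across IL-4/13 libraries, 0.133, 0.487, and 0.364 across Inf libraries, and 0.992, 0.843, and 0.2699 across those given both. IL-4/13 raised it above all control libraries (log2 fold change 1.20, SE 0.24, edgeR adjusted p = 0.00086) and Inf lowered it (log2 fold change -2.93, SE 0.36, edgeR adjusted p = 9e-08). With IL-4/13 on top of Inf the log2 fold change was 1.07 (edgeR adjusted p = 0.09), and the libraries overlapped. Col23a1, a transmembrane collagen, was at 0.229, 0.496, and 0.4801 CPM across control libraries, 0.268, 0.324, and 0.0735 across IL-4/13 libraries, 2.06, 1.12, and 0.849 across Inf libraries, and 0.248, 0.506, and 0.337 across those given both. It was higher in Inf alone (log2 fold change 1.71, SE 0.47, edgeR adjusted p = 0.0034) on at most 31 reads in a library, and without Inf replicate 1 its fall with added IL-4/13 lost its call (edgeR adjusted p = 0.053). Col17a1, of hemidesmosomes, and Col7a1, of the anchoring fibrils below the epidermis, passed in no comparison, with log2 fold changes from -0.26 to 0.03 and from -0.04 to 0.34.

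Of the 18 untested collagens, Col9a2 and Col13a1 had no count in any library, and Col22a1, Col26a1, and Col9a1 had at most 3. The other 13 reached between 4 and 11 counts in their highest library. These were Col24a1, Col6a4, Col4a6, Col10a1, Col8a2, Col14a1, Col2a1, Col4a3, Col6a5, Col4a4, Col6a6, Col19a1, and Col25a1. In the fit with no filter on low counts, 2 of them were called by edgeR. Col24a1 was called higher with Inf (edgeR adjusted p = 0.00048) and with IL-4/13 + Inf against control (edgeR adjusted p = 0.02), at 0 CPM in each control library and 0.731, 0.438, and 0.121 CPM in Inf. Col8a2 was called lower with IL-4/13 (edgeR adjusted p = 0.016) and with IL-4/13 + Inf against control (edgeR adjusted p = 0.023), at 0.457, 0.248, and 0.3601 CPM in control and 0 CPM in each IL-4/13 library. Both rest on at most 11 counts in a library.

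The prolyl 4-hydroxylases, whose product keeps the collagen helix stable at body temperature, had a different response for each of the 3 genes. P4ha1, the most abundant, was called in no comparison, with log2 fold changes from -0.16 to -0.05. P4ha2 (ENSMUSG00000018906) was at 111, 114, and 123 CPM across control libraries, 98.6, 106, and 103 across IL-4/13 libraries, 296, 289, and 284 across Inf libraries, and 219, 216, and 224 across those given both. Inf raised it above every library without Inf (log2 fold change 1.32, SE 0.05, edgeR adjusted p = 1.1e-20), and IL-4/13 + Inf libraries lay between (log2 fold change -0.40, SE 0.04, edgeR adjusted p = 5.5e-08 against Inf). With IL-4/13 alone it was at -0.18 (edgeR adjusted p = 0.015), under the threshold of size. P4ha3 was at 29.8, 27.7, and 30.4 CPM across control libraries, 18.5, 20.02, and 18.7 across IL-4/13 libraries, 15.6, 14.9, and 15.9 across Inf libraries, and 9.47, 10.3, and 10.8 across those given both. It fell with IL-4/13 (log2 fold change -0.62, SE 0.08, edgeR adjusted p = 4.7e-06), with Inf (log2 fold change -0.93, SE 0.09, edgeR adjusted p = 2.1e-10), and with IL-4/13 on top of Inf (log2 fold change -0.60, SE 0.10, edgeR adjusted p = 1.9e-05), with no overlap between any of the conditions.

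The region upstream of P4ha2 is shown because this gene had the largest rise with Inf among the enzymes above 10 CPM in control. It is from RefSeq (GRCm38.p6, chr11:54100674-54100923, plus strand), with the match to ACGTG in capitals.
P4ha2: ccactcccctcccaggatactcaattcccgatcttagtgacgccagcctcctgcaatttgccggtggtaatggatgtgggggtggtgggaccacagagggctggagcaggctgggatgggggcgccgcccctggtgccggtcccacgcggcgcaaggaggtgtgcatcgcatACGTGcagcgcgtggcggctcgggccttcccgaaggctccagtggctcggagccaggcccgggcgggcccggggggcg

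Among the lysyl hydroxylases, which prepare lysines for sugar addition and cross-linking, Plod2 rose with Inf and Plod3 fell. Plod2, which acts on the ends of the chains, was at 65.03, 63.9, and 60.01 CPM across control libraries, 68.7, 62.7, and 65.3 across IL-4/13 libraries, 93.2, 96.5, and 101 across Inf libraries, and 93.8, 87.7, and 78.8 across those given both. All libraries with Inf were above all without it (log2 fold change 0.62, SE 0.06, edgeR adjusted p = 6.7e-10), and added IL-4/13 gave -0.15 (edgeR adjusted p = 0.057). Plod1, which acts within the helix, was at 188, 169, and 191 CPM across control libraries, 167, 159, and 166 across IL-4/13 libraries, 196, 199.8, and 196 across Inf libraries, and 154, 153, and 152 across those given both. It was lowest with IL-4/13 + Inf, below Inf (log2 fold change -0.37, SE 0.05, edgeR adjusted p = 5.4e-07) and below control (log2 fold change -0.25, SE 0.05, edgeR adjusted p = 5.6e-05), although the second call sits at the threshold of size and was lost in 4 of the 12 fits without a library, those without control replicate 1, control replicate 3, Inf replicate 2, and IL-4/13 + Inf replicate 3. Plod3 was at -0.39 (edgeR adjusted p = 1.7e-08) with Inf and 0.02 (edgeR adjusted p = 0.84) with IL-4/13 on top of Inf. Of the Plod3 exon bases, 11.71% overlap Znhit1 on the other strand.

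The lysyl oxidases were most of the enzymes that IL-4/13 raised, with 4 of the 5 upregulated by IL-4/13 alone and 3 of the 5 when it was added to Inf. They form the cross-links that give fibrils their strength. Lox, the founding member and the third most abundant of all 58 genes by mean CPM, was at 956, 936, and 971 CPM across control libraries, 1883, 1882, and 1875 across IL-4/13 libraries, 1499, 1619, and 1551 across Inf libraries, and 2091, 2039, and 2054 across those given both. No libraries of any pair of conditions overlapped. Its log2 fold change was 0.98 with IL-4/13 (SE 0.04, edgeR adjusted p = 5.5e-19), 0.71 with Inf (SE 0.04, edgeR adjusted p = 1.7e-16), 1.11 (edgeR adjusted p = 1.6e-21) with IL-4/13 + Inf against control, and 0.41 (edgeR adjusted p = 4.6e-10) with IL-4/13 on top of Inf.

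The transcript ratio of Lox to its substrate type I collagen was higher in every treated library than in any control library. Lox per Col1a1, both per kilobase of exon, was 0.3397 ± 0.0371 in control, 0.866 ± 0.0367 with IL-4/13, 0.861 ± 0.0764 with Inf, and 1.36 ± 0.05 with both (mean ± SD, n = 3). IL-4/13 and Inf alone overlapped in this ratio, control lay below both, and IL-4/13 + Inf lay above both. Loxl1, the family member linked to elastic fibers, was at -0.18 (edgeR adjusted p = 0.0042) with IL-4/13, -0.20 (edgeR adjusted p = 0.00032) with Inf, and -0.35 (edgeR adjusted p = 4.2e-08) with IL-4/13 + Inf against control, of which only the last passed the threshold of size. Lox over Loxl1 per kilobase was 1.26 ± 0.03 in control and 3.47 ± 0.0635 in IL-4/13 + Inf.

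Loxl3 and Loxl4 shared a pattern that differed from that of Lox, with a rise under IL-4/13 and a fall under Inf. Loxl4 (ENSMUSG00000025185) was at 171, 146, and 165 CPM across control libraries, 215, 223, and 253 across IL-4/13 libraries, 97.6, 90.1, and 82.3 across Inf libraries, and 163, 153, and 171 across those given both. IL-4/13 raised it alone (log2 fold change 0.52, SE 0.07, edgeR adjusted p = 0.00011) and on Inf (log2 fold change 0.85, SE 0.07, edgeR adjusted p = 1.9e-07), and Inf alone lowered it (log2 fold change -0.84, SE 0.07, edgeR adjusted p = 5.2e-08). In IL-4/13 + Inf it was back at the control level, with overlapping libraries and a log2 fold change of 0.01 (SE 0.07). Loxl3 was at 151, 139, and 154 CPM across control libraries, 200.3, 197, and 199.6 across IL-4/13 libraries, 71.5, 71.3, and 69.7 across Inf libraries, and 91.8, 93.8, and 85.6 across those given both. IL-4/13 raised it alone (log2 fold change 0.43, SE 0.05, edgeR adjusted p = 1.3e-07) and on Inf (log2 fold change 0.35, SE 0.05, edgeR adjusted p = 4.9e-06), Inf lowered it (log2 fold change -1.06, SE 0.05, edgeR adjusted p = 2.8e-17), and with IL-4/13 + Inf it stayed below control (log2 fold change -0.71, SE 0.05, edgeR adjusted p = 3.3e-13). Of its exon bases, 11.62% overlap Htra2 on the other strand. The comparisons with IL-4/13 and with Inf share the control libraries.

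The region upstream of Loxl4 is shown because of these opposite responses. It is from RefSeq (GRCm38.p6, chr19:42612807-42613056, minus strand), with a match to the NF-kB consensus in capitals.
Loxl4: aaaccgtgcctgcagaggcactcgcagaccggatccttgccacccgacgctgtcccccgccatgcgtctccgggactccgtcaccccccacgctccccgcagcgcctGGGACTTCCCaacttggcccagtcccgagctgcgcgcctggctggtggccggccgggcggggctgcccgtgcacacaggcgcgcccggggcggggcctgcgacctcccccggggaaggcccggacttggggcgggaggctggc

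Loxl2 was scarce, with at most 73 reads in a library, and was at 0.229, 0.868, and 0.8402 CPM across control libraries, 1.39, 1.17, and 2.06 across IL-4/13 libraries, 3.52, 3.56, and 3.09 across Inf libraries, and 2.48, 1.91, and 1.69 across those given both. All treated libraries lay above all control libraries. Inf raised it most (log2 fold change 2.40, SE 0.33, edgeR adjusted p = 5.8e-07), and the call with IL-4/13 alone (log2 fold change 1.24, SE 0.37, edgeR adjusted p = 0.034) was lost without control replicate 1, IL-4/13 replicate 1, or IL-4/13 replicate 3, with a log2 fold change of 0.83 and edgeR adjusted p of 0.22 without control replicate 1. Of the 50-base stretches of its longest transcript, 45.76% also occur in transcripts of other genes, so its reads are less certain than those of the other members.

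The chaperone gene Serpinh1 was abundant and changed little. It was at 1456 ± 35.5 CPM in control (mean ± SD, n = 3), 1269 ± 16.6 CPM with IL-4/13, 1180.0 ± 20.6 CPM with Inf, and 1203 ± 23.9 CPM with both. All treated libraries were below control, at -0.20 (edgeR adjusted p = 0.00023) with IL-4/13, under the threshold of size, and -0.30 (edgeR adjusted p = 2.5e-08) with Inf. Its response to IL-4/13 differed between the settings by 0.23 (edgeR adjusted p = 0.006), also under the threshold of size.

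The C-proteinase enhancers speed the removal of the procollagen C-propeptide. Pcolce2 was at 1.94, 2.29, and 3.12 CPM across control libraries, 5.09, 5.83, and 3.38 across IL-4/13 libraries, 2.33, 2.39, and 2.12 across Inf libraries, and 7.34, 6.01, and 5.33 across those given both. Both conditions with IL-4/13 lay above those without it, at a log2 fold change of 0.97 alone (SE 0.22, edgeR adjusted p = 0.0034) and 1.46 on Inf (SE 0.21, edgeR adjusted p = 5e-06), and Inf alone gave -0.10 (edgeR adjusted p = 0.77). The more abundant Pcolce was at -0.32 (edgeR adjusted p = 1.6e-06) with IL-4/13 + Inf against control and was not called in the other comparisons.

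**Figure D3:**
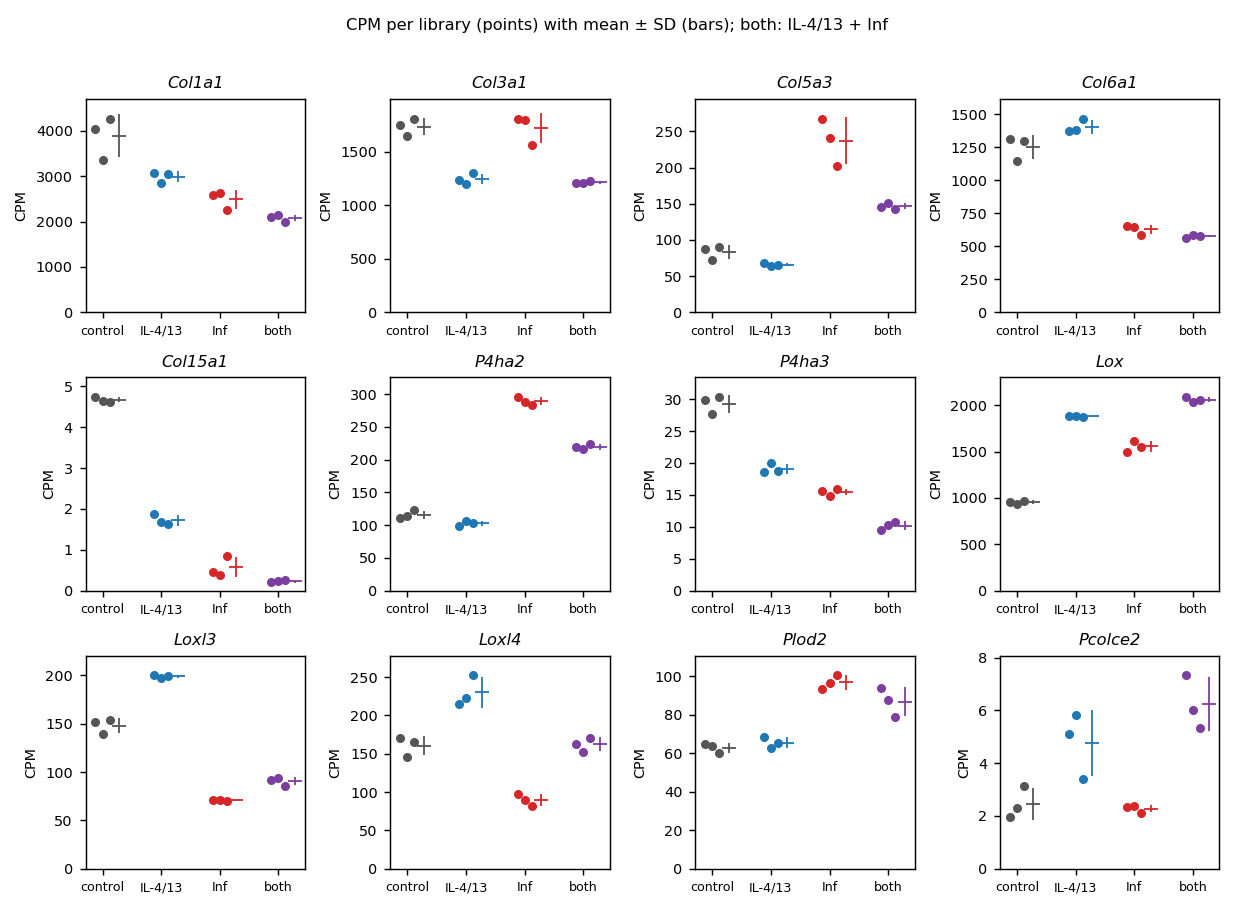
CPM of 12 of the genes in each library (vertical axes start at 0), with points for libraries, bars for the mean ± SD of 3 libraries, and "both" for IL-4/13 + Inf. Col1a1 and P4ha3 step down, Col3a1 and Pcolce2 divide by IL-4/13, Col6a1, P4ha2, and Plod2 divide by Inf, and Loxl3 and Loxl4 are high in IL-4/13 and low in Inf.

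The responses to IL-4/13 with and without Inf were then set against each other, since these comparisons share no library. They were alike for most genes, with a Pearson correlation of 0.71 and a Spearman correlation of 0.67 across the 40 tested genes, which are a description of genes that share the same libraries. Col11a1, Col3a1, Col5a2, Col18a1, and P4ha3 were downregulated in both settings, and Lox, Loxl3, Loxl4, and Pcolce2 were upregulated in both. In the main fit no gene was called in opposite directions, and 17 were called in neither. Another 5 genes (Col1a1, Col1a2, Col5a1, Col8a1, and Col15a1) were called lower without Inf and not with it. A further 7 (Col5a3, Col12a1, Col16a1, Col6a3, Col23a1, P4ha2, and Plod1) were called lower with Inf and not without it. Col28a1 and Loxl2 were called higher without Inf only. This division depended on the fit. Once Inf replicate 3 was left out, Col1a1, Col1a2, Col5a1, and Col5a3 were called lower in both settings. Col15a1 was called lower in both without Inf replicate 2 (-1.51 on Inf, edgeR adjusted p = 0.031). Col28a1 was called higher in both without IL-4/13 + Inf replicate 3 (1.40 on Inf, edgeR adjusted p = 0.02). Loxl2 was called in opposite directions in some fits, higher with IL-4/13 alone and lower on Inf. These were the fits with no filter (-0.72 on Inf, edgeR adjusted p = 0.047), with only the groups compared (-0.73, edgeR adjusted p = 0.032), and without control replicate 3 (-0.73). Of these 14 genes, the difference between the responses was called for Loxl2. Other fits called it for Col5a3 (-0.45, edgeR adjusted p = 0.0031 without Inf replicate 3, and -0.35, edgeR adjusted p = 0.001 with no filter). P4ha2 was called without control replicate 3 (-0.26, edgeR adjusted p = 0.03) and without IL-4/13 replicate 1 (-0.25, edgeR adjusted p = 0.045).

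The test of that difference, the interaction, was called for 3 of the 40 genes, all toward a lower response with Inf (7.5%, against 1.59% of all tested genes), and none toward a higher one (0.0%, against 1.52%). Lox responded to IL-4/13 less in the presence of Inf, with a difference of log2 fold changes of -0.57 (SE 0.05, edgeR adjusted p = 7.1e-09), and was called in all 12 fits that leave out a library. Col6a1 differed by -0.29 (SE 0.07, edgeR adjusted p = 0.0096), with a log2 fold change of 0.17 with IL-4/13 alone and -0.12 on Inf, neither of which was called. Without control replicate 2 its difference was -0.24, under the threshold of size. Loxl2 differed by -1.97 (SE 0.46, edgeR adjusted p = 0.01). Without IL-4/13 replicate 3 its adjusted p was 0.054, and DESeq2 gave it no adjusted p. Loxl4 leaned the other way, at 0.34 (edgeR adjusted p = 0.098), and was called by DESeq2 (adjusted p = 0.028). Some edgeR fits also called Loxl4 higher, namely that with no filter (0.34, edgeR adjusted p = 0.00045) and 3 that left out a library. These were without control replicate 2 (0.39, edgeR adjusted p = 0.021), IL-4/13 replicate 3 (0.40, edgeR adjusted p = 0.014), or Inf replicate 1 (0.40, edgeR adjusted p = 0.035).

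**Figure D4:**
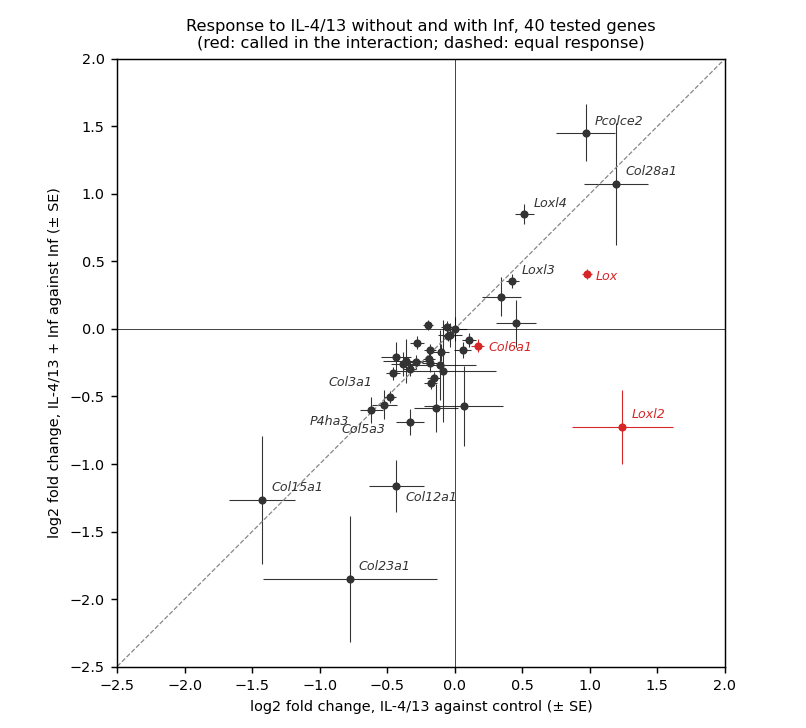
The log2 fold change of each of the 40 tested genes with IL-4/13 on top of Inf (vertical axis) against that with IL-4/13 alone (horizontal axis), both ± SE, with the dashed line where the responses are equal. Genes called in the interaction are red; Lox at 0.98 and 0.41 and Loxl2 at 1.24 and -0.73 lie below the line, and most collagens lie close to it.

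Other genes of collagen biosynthesis, uptake, and sensing formed a list of 28 with 25 tested. With IL-4/13, 1 was upregulated (4%, against 2.78% of all tested genes) and 3 downregulated (12%, against 2.57%). With Inf, 4 were upregulated (16%, against 16.3%) and 7 downregulated (28%, against 15.3%). In IL-4/13 + Inf against control the counts were 5 (20%, against 13.4%) and 7 (28%, against 11.5%). With IL-4/13 on top of Inf they were 2 and 2 (8% each, against 7.55% and 7.00%), so these shares and the upregulated share with Inf lay near those of all genes. Adamts14, a procollagen N-proteinase, was the member that rose with IL-4/13 alone (log2 fold change 1.25, SE 0.07, edgeR adjusted p = 1.5e-14), from 52.1 ± 6.16 CPM to 124 ± 1.13 CPM, and it rose again on Inf (log2 fold change 1.31, SE 0.07, edgeR adjusted p = 1.3e-14) while Inf alone lowered it (log2 fold change -0.61, SE 0.07, edgeR adjusted p = 3.7e-08). This is the direction that Loxl3 and Loxl4 took. Adamts2, the main N-proteinase of type I procollagen, fell in each comparison, at -0.34 (edgeR adjusted p = 0.00016) with IL-4/13, -0.77 (edgeR adjusted p = 4.4e-12) with Inf, and -0.49 (edgeR adjusted p = 6.8e-07) with IL-4/13 on top of Inf. Bmp1, the C-proteinase, rose with Inf (log2 fold change 0.81, SE 0.05, edgeR adjusted p = 7.4e-15) from 178 ± 7.72 CPM to 312 ± 14.1 CPM. P3h2, a prolyl 3-hydroxylase, rose with Inf (log2 fold change 1.96, SE 0.33, edgeR adjusted p = 1.4e-05) and further when IL-4/13 was added (log2 fold change 1.52, SE 0.23, edgeR adjusted p = 9.3e-06), from 0.707 ± 0.3896 CPM in control to 7.94 ± 0.935 CPM.

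Collagen receptors and binding proteins were among the other genes of that list that passed. The receptor Ddr1 rose with Inf (log2 fold change 0.64, SE 0.05, edgeR adjusted p = 2.7e-11) and fell with IL-4/13 (log2 fold change -0.31, SE 0.06, edgeR adjusted p = 0.0003), whereas the receptor Ddr2 fell with Inf (log2 fold change -0.54, SE 0.06, edgeR adjusted p = 2.1e-07), as did the endocytic receptor Mrc2 (log2 fold change -0.48, SE 0.07, edgeR adjusted p = 2.2e-05). Sparc, a collagen-binding protein, fell with Inf (log2 fold change -0.30, SE 0.03, edgeR adjusted p = 1.5e-08). Creb3l1, a transcription factor of collagen-secreting cells, rose with Inf (log2 fold change 0.31, SE 0.05, edgeR adjusted p = 7.9e-06). Ctsk, a collagen-degrading protease, fell with IL-4/13 alone (log2 fold change -0.41, SE 0.13, edgeR adjusted p = 0.041). P4hb, the common subunit of the prolyl 4-hydroxylases, was at 1277 ± 17.1 CPM in control and was called in no comparison.

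Collagen genes that lie next to each other in the RefSeq annotation did not always move together. Of 8 neighboring pairs, 3 were tested in full. Col4a1 and Col4a2 were at -0.31 and -0.34 with Inf and at -0.31 and -0.38 with IL-4/13 + Inf against control. Col6a2 and Col6a1 fell together with Inf, by different amounts. Col3a1 and Col5a2 both fell with IL-4/13, but with Inf they were at -0.01 and -0.56.

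Upstream windows of 250 bases were found in the RefSeq table for 44 of the 58 genes, and not for Col9a3, Loxl2, Col4a3, Loxl3, Col5a2, Plod2, Col2a1, Col12a1, Col22a1, Col14a1, Lox, Loxl1, Col1a1, and Col26a1. The STAT6 motif, TTC and GAA parted by 4 bases, was in 0 of the 44 windows and in 5.86% of all 27025. That search did not cover Lox, Loxl2, and Loxl3, called higher with IL-4/13, or Col1a1 and Col5a2, called lower, since they had no window. The NF-kB consensus was in 5 (11.4%, against 3.75%), which were those of Col27a1, Col6a4, Col9a2, Loxl4, and Serpinh1. TGANTCA was in 1 (2.27%, against 6.87%), ACGTG in 9 (20.5%, against 16.6%), CCAAT in 13 (29.5%, against 34.5%), and TATAAA in 6 (13.6%, against 13.0%). Both strands were searched, and apart from the TGANTCA match, which fits the pattern on both, no matches overlapped in the windows printed. Such matches are a description of the letters and were not tested.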

How the data were processed

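PolyA RNA of 3T3-L1 cells was sequenced in 12 stranded libraries, 3 in each of 4 conditions. The values deposited by the authors were raw counts per Ensembl gene and library. The submitters' processing notes name STAR, featureCounts, and GRCm39. Versions, annotation, and the strand and multimapping settings are not given in the sources used here, so reads of overlapping or repeated sequence could be split either way. Deposited counts were used as they stood, and no column was left out.

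Genes were filtered with filterByExpr (minimum count 10, total 15), which left 14810, and fitted over all 12 libraries with the quasi-likelihood test of edgeR 4.0.16 (R 4.3.3, robust, TMM scaling). A prior count of 2 was used only in the log CPM behind the correlations of deviations between libraries. The Benjamini-Hochberg adjustment ran over all tested genes. Calls required a log2 fold change of more than 0.25 in size at an adjusted p under 0.05. The interaction subtracted the IL-4/13 response without Inf from the one with Inf. In a simulation of IL-4/13 against control that shifted 200 genes by 1 on the log2 scale, 80.5% were recovered and 5 unshifted genes were called. For the interaction, 69% were recovered and 8 unshifted genes were called. Of the 93 called results, 66 did not pass a log2 fold change threshold of 1. The simulated shift was thus larger than most changes reported here, and recovery of smaller shifts was not simulated. Genes were named with all their values where they were called with the largest changes, were the most abundant, or were called in the interaction. The members and lists were chosen with earlier results of these data known.

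Alternatives were DESeq2 1.42.0 (the tool the study's methods name for these libraries), its size factors in edgeR, library size alone, scaling without the members, no filter, a mean of at least 50 counts, only the groups compared, a replicate block, stricter thresholds, and leaving out each library. Exon lengths, overlaps, and shared 50-base stretches came from GENCODE M21 (GRCm38), and upstream sequences from RefSeq (GRCm38.p6). No coordinates of the count table's build were used. Protein sequences were not analysed here.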

Additional observations from a re-analysis of the deposited data

Results flagged for a closer look

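The response to IL-4/13 differed between cells with and without Inf, by the interaction test of edgeR, for 3 of the 40 tested genes. The difference of log2 fold changes was -0.573 for Lox, whose response stayed positive in both settings. It was -0.292 for Col6a1, for which neither single response was called. It was -1.969 for Loxl2, which had at most 73 counts in a library and a large share of sequence found in other transcripts.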

How the results depend on the processing

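Of 93 called results over the 40 tested genes and 5 comparisons, 80 were called in each fit that left out 1 library. None changed direction. There were 8 other alternatives with the same thresholds, among them the fit of only the groups compared. Of the 93 results, 88 were called under each of these alternatives that gave a value for them. Some had a value in fewer than 8, such as the interaction of Loxl2 in 5. With a log2 fold change threshold of 1, the counts of upregulated and downregulated genes were 2 and 1 with IL-4/13, 4 and 6 with Inf, 3 and 7 with IL-4/13 + Inf against control, and 1 and 2 for IL-4/13 + Inf against Inf, and 1 gene was lower in the interaction. In the same order, 87 and 21, 786 and 309, 714 and 382, and 133 and 105 of all 14810 tested genes passed this threshold. In the interaction, 23 of them were lower. A higher response in the interaction was called for 1 gene under DESeq2 and 1 without the filter, where 56 members were tested. The summed level in IL-4/13 + Inf was 16705 CPM scaled by library size alone, against 16887. Leaving out 1 library gave 5 to 6 upregulated and 8 to 11 downregulated genes with IL-4/13, 9 to 10 and 18 to 19 with Inf, 7 and 21 to 23 with IL-4/13 + Inf against control, 4 to 5 and 9 to 16 for IL-4/13 + Inf against Inf, and 0 to 1 and 2 to 4 in the interaction. The summed levels then ranged from 23241 to 24759 CPM in control, 21439 to 22074 in IL-4/13, 18300 to 19349 in Inf, and 16841 to 17011 in IL-4/13 + Inf.

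With a replicate block, IL-4/13 against control held 5 upregulated and 8 downregulated genes, with the calls of Col1a1 (edgeR adjusted p = 0.053), Col5a1 (edgeR adjusted p = 0.095), and Loxl2 (edgeR adjusted p = 0.052) lost, as was that of Col6a3 for IL-4/13 + Inf against Inf (edgeR adjusted p = 0.072). Correlations of deviations between libraries of the same number ran from -0.146 to 0.054, and the numbers are not described as pairing the samples. Depth limits the genes near 1 CPM, among them Col15a1, Col23a1, and Loxl2, and the 18 untested collagens.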
